A study of Mus musculus with 8 samples.

Results

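Transcript levels of 9 genes of cell-to-cell adhesion were compared between primordial germ cells (PGCs), from which sperm and eggs descend, of mouse embryos with a mutant Ror2 receptor and those of wild-type (WT) embryos. The genes are the cadherins Cdh1, Cdh2, Cdh3 and Cdh11, the catenins Ctnna1, Ctnnb1 and Ctnnd1, and the surface proteins Epcam and Cd9. They were chosen by name, all 9 had a probe that names no other gene, and they are 9 of the 19938 genes tested. The 4 mutant embryos were homozygous for Ror2 Y324C, a single amino acid change in a receptor for Wnt5a, and the 4 WT embryos were Ror2+/+. The parents were heterozygous for the mutation, of mixed strain, and the fathers were homozygous for the Oct4-ΔPE reporter, so the embryos of both groups carry this transgene, in which Oct4 regulatory sequence drives EGFP in PGCs. Cells were taken at embryonic day 9.5, when PGCs are migrating, by sorting GFP+ cells from the posterior of 1 embryo per microarray. Mutants 1 to 4 had 24, 22 to 23, 23 and 21 to 22 somites, and WT 1 to 4 had 25, 25, 22 and 21 somites. The allele changes the receptor in every cell of the embryo, so the design does not separate PGCs from the tissues they cross.

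Cadherins are transmembrane proteins that bind cadherins of the neighbouring cell through calcium-dependent outer domains. Inside the cell, beta-catenin (Ctnnb1) and p120-catenin (Ctnnd1) bind the cadherin tail, and alpha-catenin (Ctnna1) couples beta-catenin to actin. Ctnnb1 also carries the canonical Wnt signal into the nucleus, a branch that Wnt5a and Ror2 are known to affect in several settings. Cells that leave an epithelium often exchange E-cadherin (Cdh1) for N-cadherin (Cdh2), and mouse PGCs, which leave the hindgut epithelium, are known to carry E-cadherin and Epcam on their surface.

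Values are the deposited array values, taken to be on the log2 scale. Each probe has its own affinity, so levels are compared between embryos for 1 gene and not between genes. The 1194 genes for olfactory and vomeronasal receptors, whose place is the nose, served as a guide to background signal, and a value under their 95th percentile is called inside the receptor range. That percentile lay between 5.11 and 5.31 in mutants and between 5.06 and 5.51 in WT. The mean of a gene over all arrays is called above the receptor range where it passed 5.26. This is the 95th percentile of the receptor genes' means, and a gene near it can lie inside the range on some arrays. The germ cell markers Pou5f1 and Dppa3 were at 11.24 ± 0.12 in mutants and 11.13 ± 0.18 in WT, and 11.41 ± 0.11 in mutants and 11.27 ± 0.23 in WT (log2 level, SD, n = 4 each). The mean of 12 PGC markers ran from 9.27 to 9.42 in mutants and from 9.20 to 9.44 in WT, and 11 of the 12 lay above the receptor range. WT 3 stood apart from the other arrays, with the narrowest distribution (SD over genes 1.77, against 1.82 to 1.95 elsewhere) and the lowest PGC marker mean. WT 3 also had the highest mean of the trunk mesenchyme, neural tube, endothelium, primitive erythroid, macrophage and surface ectoderm lists. The receptor percentile of WT 3 (5.51) and its median over all probes (5.58) were likewise the highest of all arrays. The part of background signal in those list means was not tested. Xist was high in mutant 4 and WT 3 (6.31 and 7.07, against 3.50 to 4.11 in the others).

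Of the 9 adhesion genes, 7 were above the receptor range in all 8 arrays, and Cdh2 and Cdh11 were inside it in all 8. The sorted cells had clear signal for E-cadherin, P-cadherin (Cdh3), Epcam, all 3 catenins and Cd9, in mutants and in WT alike, and none that could be told from background for N-cadherin or Cdh11. Mutant against WT, limma called 0 of the 9 at an adjusted p under 0.05, where it called 0% of all genes. At an unadjusted p under 0.05 there were 0 of the 9, where all genes gave 934, or 4.68%, of which 543 were higher and 391 lower in mutants, or 796 and 230 after median centring. In 0 of the 9 did all mutant values lie on 1 side of all WT values, which was so for 2.52% of all genes. The differences lay between -0.23 and 0.25 (log2, mutant minus WT). The 95% intervals of all 9 lay between -0.53 and 0.75, so a difference of 1 in array value was outside each of them. For Cdh2 and Cdh11 the interval describes signal inside the receptor range, and it does not bound a change in their RNA. The array values reflect RNA from sorted pools, in which fewer cells of a type and less RNA per cell cannot be told apart.

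**Figure D1:**
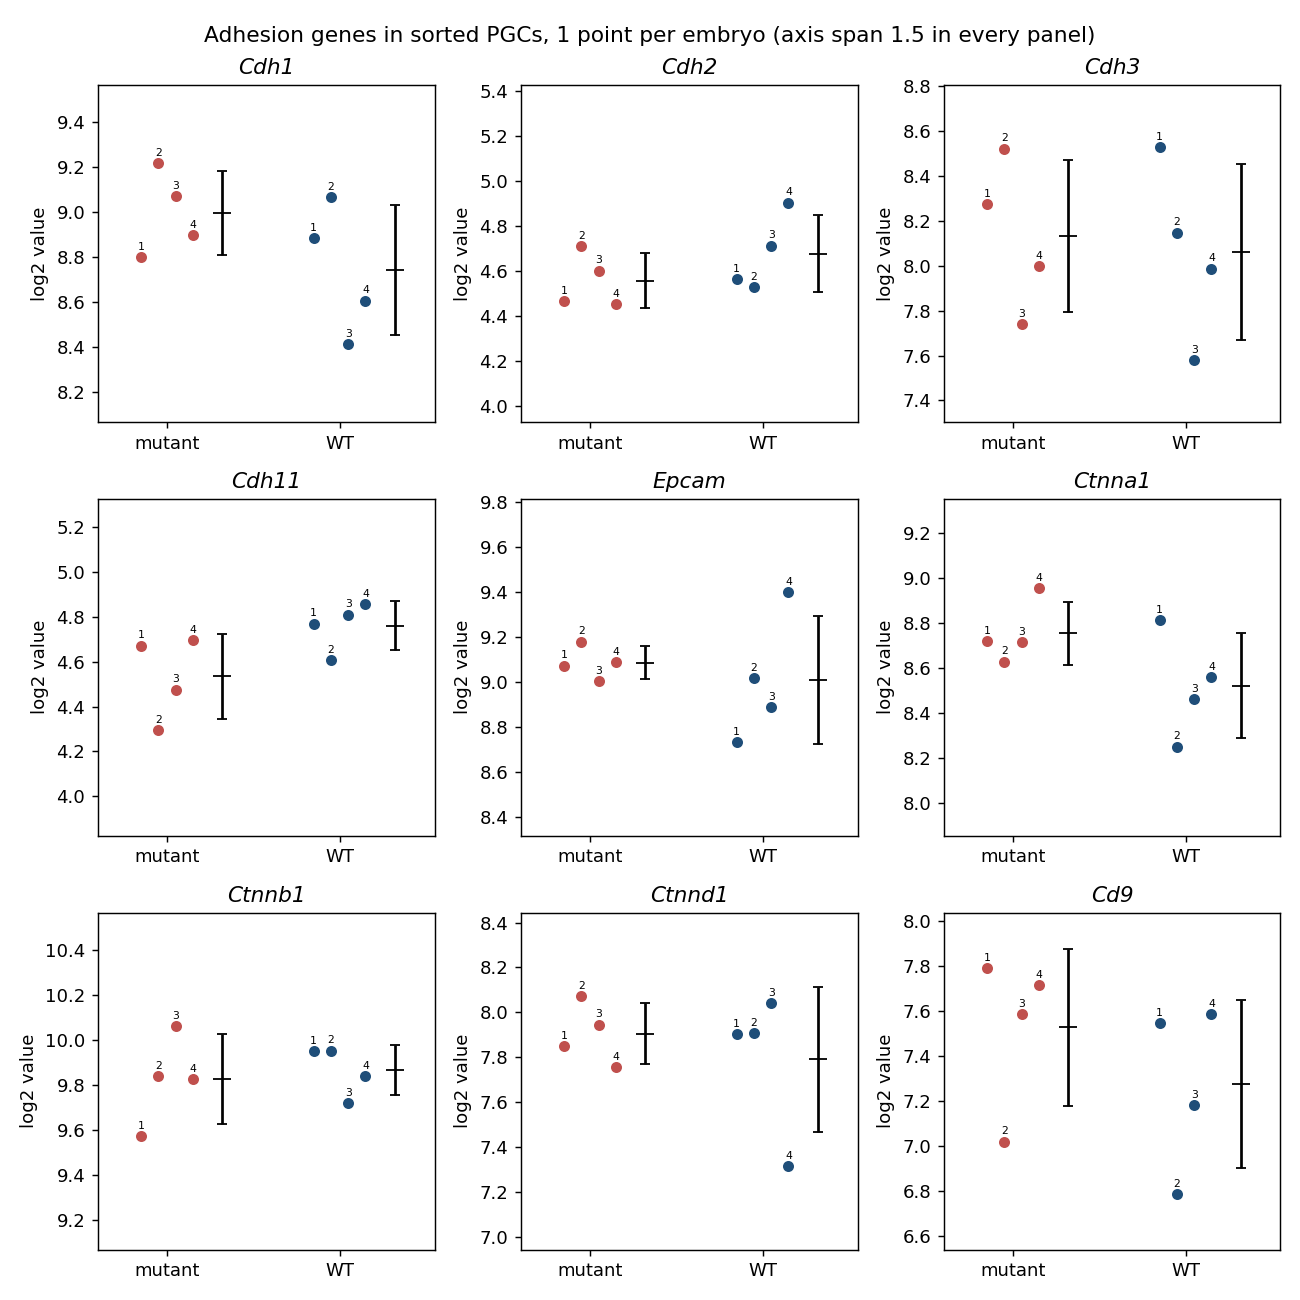
Log2 level of each adhesion gene (vertical axis, each panel spanning 1.5 log2 units) in mutant and WT embryos; points are embryos with their replicate number, and bars are the mean ± SD of 4. The groups overlap in all 9 panels, and the clearest visual offset is the lower position of the Cdh11 points in mutants, at levels inside the receptor range.

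Cdh1 encodes E-cadherin, the main cadherin of epithelia. Its log2 level was 8.80, 9.22, 9.07 and 8.89 in mutants 1 to 4, against 8.88, 9.07, 8.41 and 8.60 in WT 1 to 4. WT 3 and WT 4 were the lowest 2 of the 8 embryos, and the other 2 WT values lay among the mutants. The means were 8.99 ± 0.19 in mutants and 8.74 ± 0.29 in WT (SD, n = 4 each), a difference of 0.25 ± 0.17 (SE; 95% interval -0.12 to 0.63; limma adjusted p 0.973; exact permutation p 0.171, two-sided, where 0.0286 is the smallest that 4 against 4 embryos can give). All 4 mutants lay above the WT mean. Without WT 3 the difference was 0.14 ± 0.16, and after quantile normalization 0.21 ± 0.14.

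Cdh3 encodes P-cadherin, named for its placental expression and found in many embryonic epithelia; the gene lies beside Cdh1 on chromosome 8. It stood at 8.27, 8.52, 7.74 and 7.999 in mutants 1 to 4, against 8.53, 8.15, 7.58 and 7.99 in WT 1 to 4. This was the widest spread among the 4 cadherins, with mutant 2 and WT 1 highest and WT 3 and mutant 3 lowest, and both groups covered nearly the same range. The difference was 0.073 ± 0.22 (SE; interval -0.42 to 0.57; limma adjusted p 0.980), and its sign turned without WT 3, to -0.087 ± 0.21.

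Cdh2 encodes N-cadherin, the cadherin of neural tissue, heart and much mesoderm. Its level was 4.47, 4.71, 4.60 and 4.45 in mutants 1 to 4, against 4.57, 4.53, 4.71 and 4.90 in WT 1 to 4. All 8 values were under the 95th percentile of the receptor genes on their own array, with WT 4 the highest. The difference was -0.12 ± 0.14 (SE; interval -0.42 to 0.18; limma adjusted p 0.975). A value inside the receptor range does not show that the transcript is absent, and a change in N-cadherin RNA was not detectable at this signal.

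Cdh11, a type II cadherin of mesenchyme, likewise read 4.67, 4.29, 4.47 and 4.70 in mutants 1 to 4, against 4.77, 4.61, 4.81 and 4.85 in WT 1 to 4. Every mutant was below the WT mean, while mutants 1 and 4 overlapped WT 2. The difference was -0.23 ± 0.14 (SE; interval -0.53 to 0.078; limma adjusted p 0.973; exact permutation p 0.0857), the smallest p of the 9 genes. The 1194 receptor genes themselves had a median difference of -0.083, with 72.7% below 0, and after quantile normalization -0.016 with 55.4% below 0. The Cdh11 difference after that normalization was -0.15 ± 0.12. A further 3 probes list Cdh11 together with other genes and were not used.

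Epcam encodes the epithelial cell adhesion molecule, a surface protein of epithelia, stem cells and germ cells that binds its like on neighbouring cells and is known to associate with claudin 7. Its promoter is shown with that of Cd9, because both hold the 6-base E-box CACCTG or its reverse complement CAGGTG, the sequence known to be bound by repressors of the Snail and Zeb families that act on epithelial genes. The 250 bases before the gene start are given 5′ to 3′ on the gene's strand, from RefSeq on GRCm38.p6, with the E-boxes in capitals. The windows are chr17:87635729-87635978 on the plus strand for Epcam and chr6:125494761-125495010 on the minus strand for Cd9.
Epcam: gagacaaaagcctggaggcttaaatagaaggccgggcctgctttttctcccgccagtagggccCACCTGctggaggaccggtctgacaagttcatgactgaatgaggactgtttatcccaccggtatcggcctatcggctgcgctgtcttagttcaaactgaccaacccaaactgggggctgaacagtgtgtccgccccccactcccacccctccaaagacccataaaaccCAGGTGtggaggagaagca
Cd9: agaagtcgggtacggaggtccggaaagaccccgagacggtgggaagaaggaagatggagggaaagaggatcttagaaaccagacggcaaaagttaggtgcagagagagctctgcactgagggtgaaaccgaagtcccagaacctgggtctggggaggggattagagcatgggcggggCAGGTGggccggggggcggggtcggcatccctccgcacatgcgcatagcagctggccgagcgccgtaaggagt
The Epcam window holds CACCTG starting 187 bases and CAGGTG starting 19 bases before the gene start, and the Cd9 window holds CAGGTG starting 73 bases before it. Of the 9 genes, 4 had a promoter sequence in the table used, and the windows of Ctnnb1 and Ctnnd1 held neither form. Over all 32851 promoter windows of the same length, 17.2% held at least 1 of these forms and 2.06% held 2 or more. The match describes letters and not binding.

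Epcam had log2 levels of 9.07, 9.18, 9.003 and 9.09 in mutants 1 to 4, against 8.73, 9.02, 8.89 and 9.40 in WT 1 to 4. The mutants lay within a narrow band, inside the range of the WT embryos, whose lowest was WT 1 and highest WT 4. The difference was 0.077 ± 0.16 (SE; interval -0.27 to 0.42; limma adjusted p 0.979). WT 4 also had the highest mean of the hindgut endoderm markers, an epithelium that itself makes Epcam and Cdh1: that mean was 5.45, 5.48, 5.48 and 5.78 in mutants 1 to 4 and 5.36, 5.61, 5.82 and 5.94 in WT 1 to 4. Of its 12 measured markers, 8 had a mean above the receptor range, as did 11804 of all 19938 genes. Among the 8 was the endoderm factor Foxa2, at 5.58 ± 0.086 in mutants and 5.59 ± 0.21 in WT (SD, n = 4 each). The high list mean of WT 4 rests in part on Krt18, at 9.47 in WT 4 against 6.56 to 7.70 in the other embryos. The hindgut factor Cdx2 was at 7.87 in WT 4, against 7.83 to 8.30 in the others. The part of hindgut cells in the Epcam and Cdh1 values was not tested.

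Cd9 encodes a tetraspanin, a protein with several membrane spans that organises integrins and other surface proteins and is needed on the egg for sperm fusion. It read 7.79, 7.02, 7.59 and 7.72 in mutants 1 to 4, against 7.55, 6.79, 7.18 and 7.59 in WT 1 to 4. It had the widest range of the 9 genes, 1.01 log2 units, with WT 2 and mutant 2 at the bottom and the other 3 mutants at the top, level with or above the remaining WT embryos. The difference was 0.25 ± 0.22 (SE; interval -0.24 to 0.75; limma adjusted p 0.973), and it was 0.091 without WT 2 and 0.42 without mutant 2.

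Ctnna1, alpha-catenin, the link to actin, had levels of 8.72, 8.63, 8.72 and 8.96 in mutants 1 to 4, against 8.81, 8.25, 8.46 and 8.56 in WT 1 to 4. The mutants were all above the WT mean, and WT 1 overlapped them. The means were 8.75 ± 0.14 in mutants and 8.52 ± 0.23 in WT, a difference of 0.23 ± 0.15 (SE; interval -0.10 to 0.57; limma adjusted p 0.973; exact permutation p 0.171).

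Ctnnb1, beta-catenin, was at 9.57, 9.84, 10.06 and 9.83 in mutants 1 to 4, against 9.95, 9.95, 9.72 and 9.84 in WT 1 to 4. Mutant 1 was lowest and mutant 3 highest, and the WT embryos fell between them. The difference was -0.040 ± 0.14 (SE; interval -0.35 to 0.27; limma adjusted p 0.982), the nearest to 0 of the 9, and its sign was positive after median centring (0.021 ± 0.15). Ctnnd1, p120-catenin, which keeps cadherins at the surface, was at 7.85, 8.07, 7.95 and 7.76 in mutants 1 to 4, against 7.90, 7.91, 8.04 and 7.32 in WT 1 to 4. WT 4 alone was low and the other 7 embryos lay close together. The difference of 0.11 ± 0.17 (SE; interval -0.27 to 0.50; limma adjusted p 0.977) turned to -0.045 without WT 4.

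**Figure D2:**
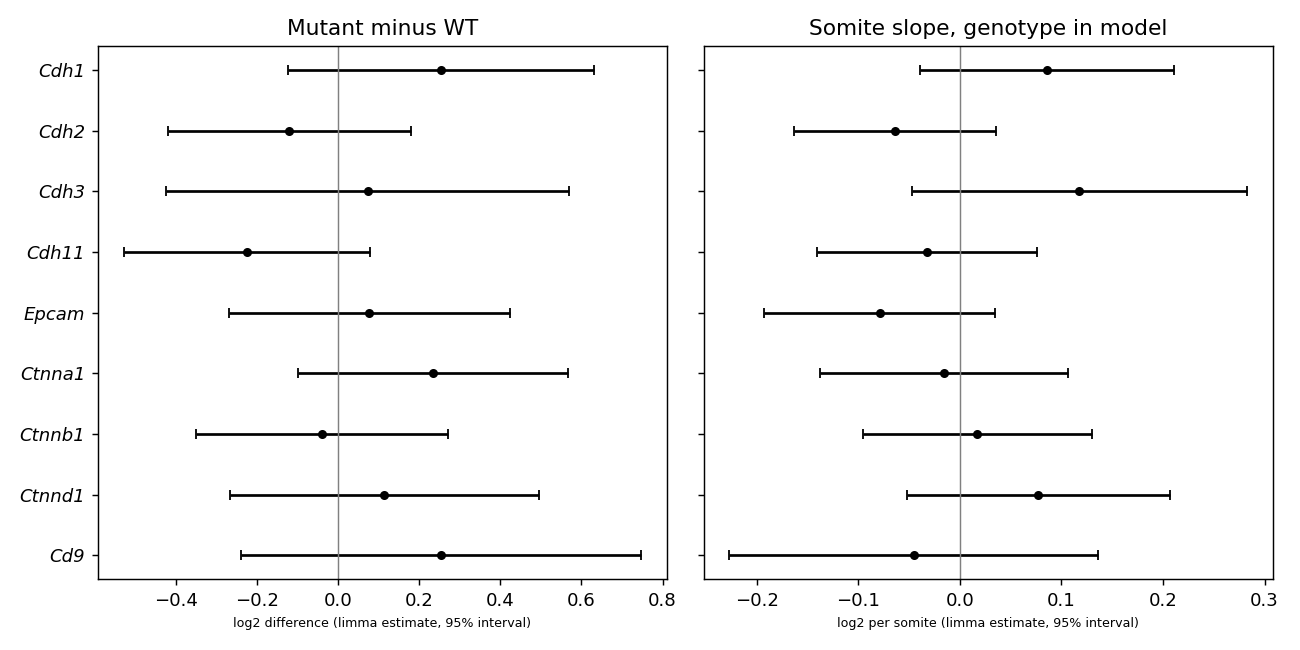
Limma estimates with 95% intervals for the 9 adhesion genes: the difference mutant minus WT on the log2 scale (left) and the slope per somite with genotype in the model (right). All 18 intervals include 0.

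Somites are added one after another at this age and serve to stage the embryos. A slope per somite was estimated for each gene in a model that also held genotype. None of the 9 passed: limma called 0 of 9 at an adjusted p under 0.05, where it called 0% of all genes, and 0 of 9 had an unadjusted p under 0.05, where all genes gave 1942, or 9.74%, of which 1000 were positive and 942 negative, or 1419 and 491 after median centring. Cdh3 had the steepest positive slope, 0.12 ± 0.073 log2 units per somite (SE; interval -0.047 to 0.28; limma adjusted p 0.584), and Cdh1 and Ctnnd1 had slopes of 0.086 ± 0.055 and 0.077 ± 0.058. Epcam had a slope of -0.079 ± 0.051 (interval -0.19 to 0.035; limma adjusted p 0.589), which was -0.010 without WT 4 and -0.052 without WT 1. Cdh2 and Cd9 had slopes of -0.064 ± 0.044 and -0.045 ± 0.081. In Epcam, the embryo of 21 somites (WT 4) had the highest value and 1 of the 2 embryos of 25 somites (WT 1) the lowest. The hindgut marker mean was highest in the 3 embryos of lowest somite number (mutant 4, WT 3 and WT 4) and lowest in WT 1. Of its 12 markers, 3 had a negative slope and 0 a positive one at an unadjusted limma p under 0.05, where all genes gave 4.72% negative and 5.02% positive. The 3 were Krt18, above the receptor range on 8 arrays, Krt19, above it on 4, and Trim2, above it on 0. The median slope of this list was -0.085, beside -0.093 for macrophage, -0.080 for primitive erythroid and -0.061 for endothelial markers, and -0.020 for all genes. Of the macrophage, primitive erythroid and endothelial lists 2 of 10, 1 of 9 and 1 of 10 markers had a negative slope at that p. The 2 macrophage markers, Fcer1g and Adgre1, were inside the receptor range on every array. Median slopes were -0.048 for neural tube, -0.042 for surface ectoderm and -0.038 for trunk mesenchyme markers. The receptor percentile also differed by embryo, at 5.06, 5.36, 5.51 and 5.39 in WT 1 to 4. The part of background signal in these slopes, or of any of these markers in the Epcam slope, was not tested. Slopes of Cdh11, Ctnna1 and Ctnnb1 were -0.032 ± 0.048, -0.016 ± 0.054 and 0.017 ± 0.050.

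**Figure D3:**
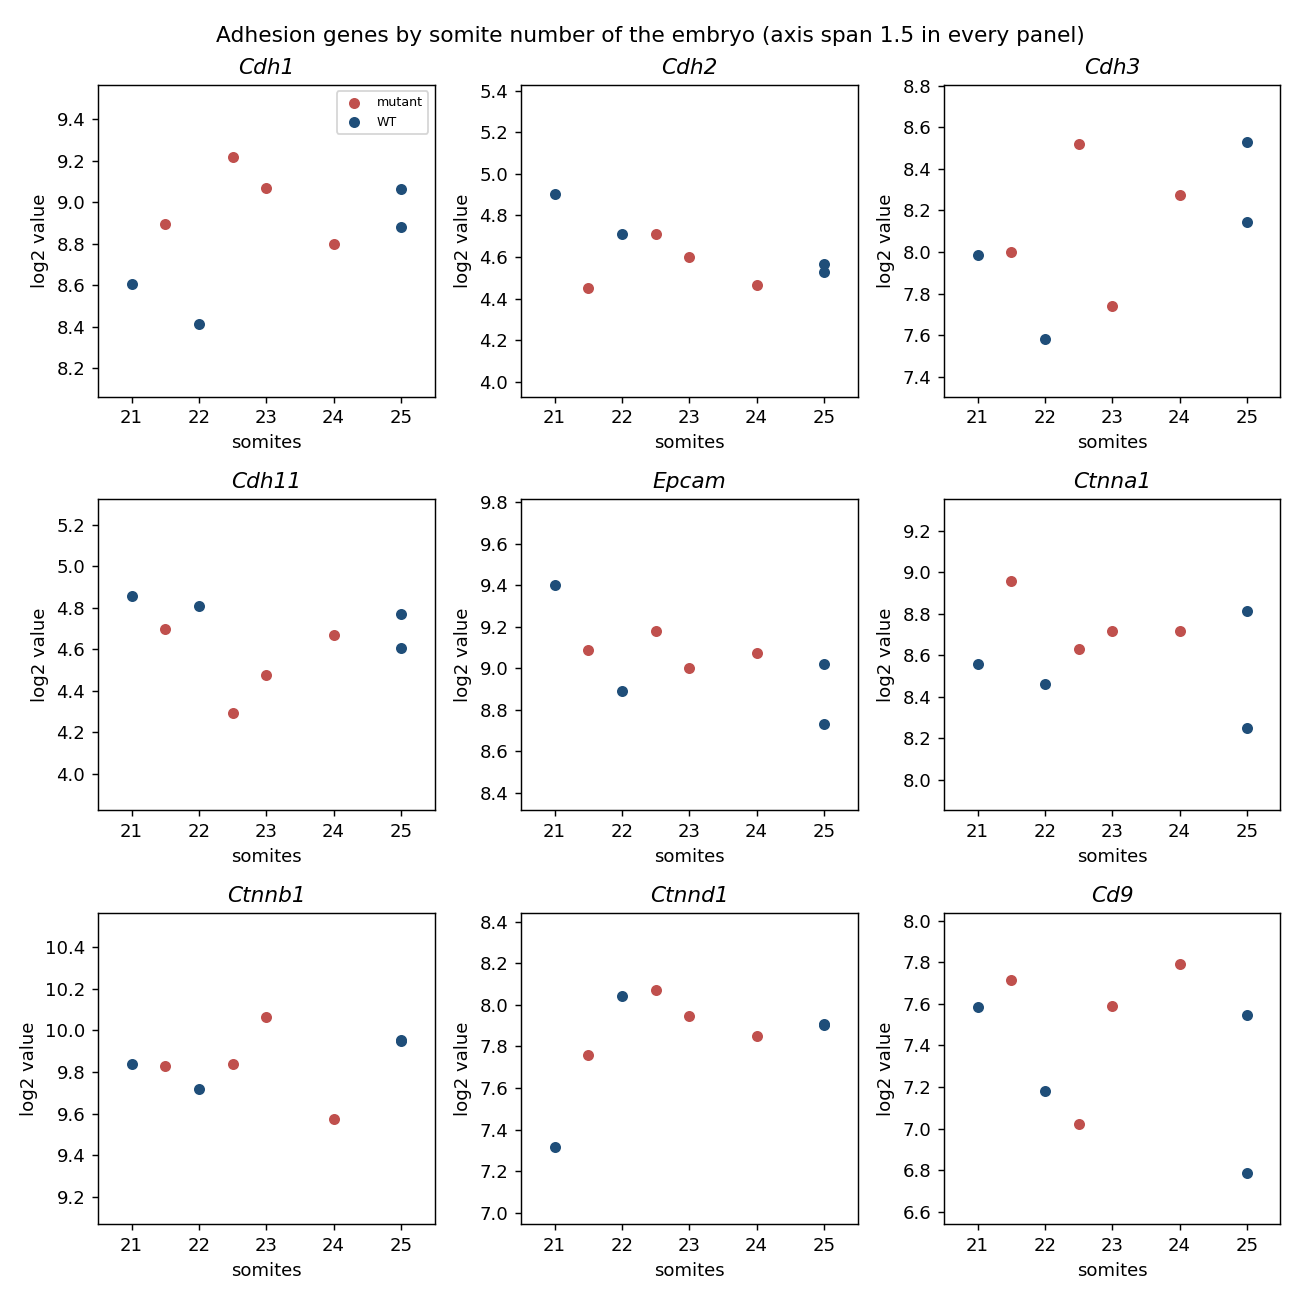
Log2 level of each adhesion gene against the somite number of the embryo (midpoint where the labels give a range), each panel spanning 1.5 log2 units; points are embryos, coloured by genotype. Epcam lies highest at 21 somites and Cdh3 lowest at 22, and no panel shows a slope past the adjusted threshold.

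The 9 genes did not vary as 1 block across embryos. Of the 36 pairs of genes, 14 had a positive and 22 a negative Pearson r over the 8 arrays. At an unadjusted exact permutation p under 0.05 there were 2 pairs by Pearson r and 1 by Spearman rho, and 0 of the 36 passed after Benjamini-Hochberg adjustment by either measure. Cdh1 and Cdh11 ran opposite to each other (r = -0.85, exact permutation p = 0.00702, adjusted 0.253; rho = -0.90, exact p = 0.00456, adjusted 0.164), and r was -0.87 without mutant 2 and WT 3, the 2 arrays farthest from the median of Cdh1. It was -0.72 after quantile normalization. With the mean of each genotype removed it was -0.80. As Cdh11 lay inside the receptor range, this relation sets a gene with clear signal against one near background. Ctnna1 and Cd9 ran together (r = 0.79, exact permutation p = 0.0156, adjusted 0.281; rho = 0.71, exact p = 0.0576, adjusted 0.952), and r fell to 0.52 without mutant 4 and WT 2, so the relation rests in part on those embryos. It was 0.84 after quantile normalization and 0.76 with the mean of each genotype removed. Cdh1 and Epcam, both of the epithelial set, had r = 0.02, and Cdh1 and Ctnnb1 0.51.

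**Figure D4:**
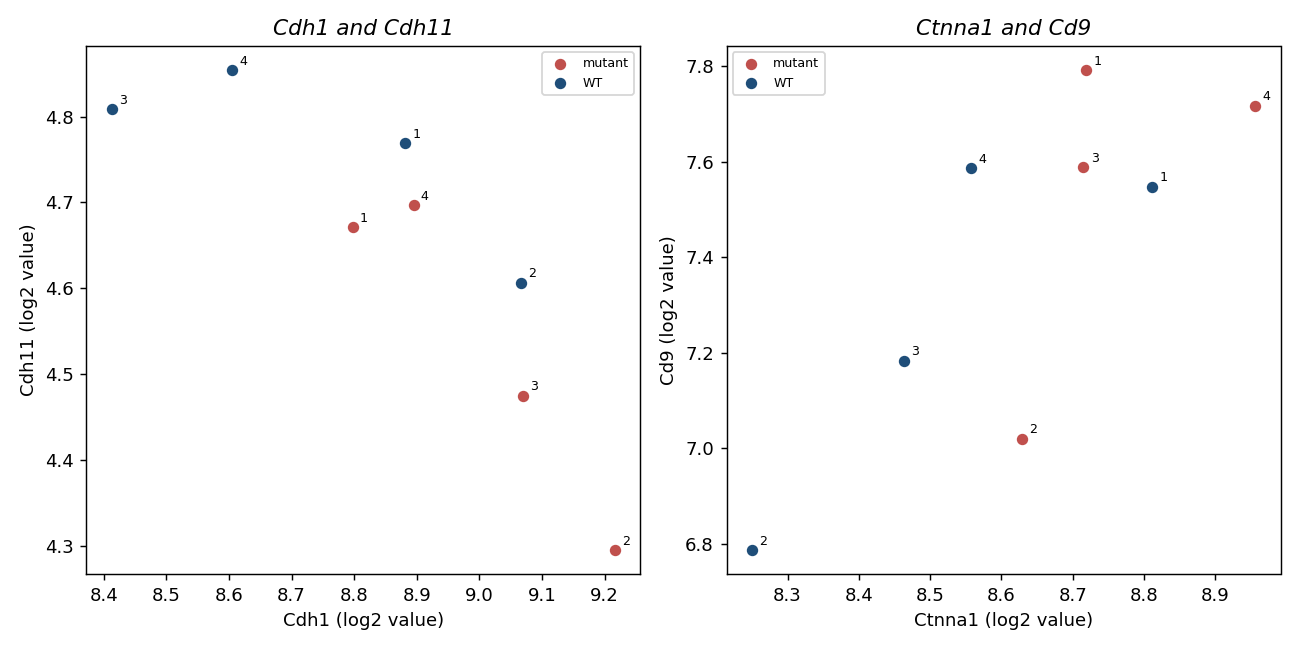
Log2 levels of Cdh1 against Cdh11 (left) and of Ctnna1 against Cd9 (right) in the 8 embryos, coloured by genotype and marked with the replicate number. Cdh11 is lower where Cdh1 is higher (r = -0.85), and Cd9 is higher where Ctnna1 is higher (r = 0.79), and neither passed after adjustment over the 36 pairs.

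Genes whose pattern over the 8 arrays was most like that of Cdh1, by Pearson r among 9604 genes of above-median level, were Psip1 (r = 0.98), Golgb1 (0.97) and Cdc20 (0.97). Golgb1 encodes a large Golgi protein and Cdc20 an activator of the anaphase-promoting complex, and 46 genes had r over 0.9. For Epcam they were Rgcc (0.97), Fxyd2 (0.94) and the mesodermal transcription factor Hand2 (0.93), with 6 genes over 0.9. For Cdh2 they were the netrin receptor Unc5b (0.95), Coq8a (0.94) and Mrps15 (0.92) among 9605 genes, with 12 over 0.9. As Cdh2 lay inside the receptor range on all 8 arrays, its ranking is one of likeness to signal near background. These are the highest of many values over 8 arrays, given as a description over arrays that differ in the width of their distribution.

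Related genes were described in 7 further lists, chosen by function, and limma called 0 genes in each, as among all genes (0%). Over all genes tested the median difference was -0.024 and 44.6% were above 0, against 58.2% above 0 after median centring, so counts above 0 depend on scaling. They also differ by level. Among genes of above-median level 57.4% were above 0, with a median of 0.041, while 72.7% of the receptor genes were below 0. Lists of mostly clear signal are to be read beside the share of above-median genes. The 9 genes had a median of 0.077 with 6 above 0. Among all genes 2.72% were higher and 1.96% lower in mutants with an unadjusted p under 0.05. Of the 9969 genes of above-median level, 404 were higher and 134 lower at that p.

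Other classical cadherins had 3 of 14 above 0 and a median of -0.095, and 0 had an unadjusted p under 0.05. The median was -0.034 after median centring and 0.024 over the members of above-median level, which were Cdh4 and Cdh24 only. Only 5 of the 14 had a mean above the receptor range. The brain cadherins Cdh20, Cdh12 and Cdh10 had the smallest p and differed by -0.26 ± 0.13, -0.19 ± 0.15 and -0.16 ± 0.13 (SE), all inside the receptor range on every array. Cdh8 had the smallest p for stage, with a slope of -0.12 ± 0.044 per somite (limma adjusted p 0.478), also inside the receptor range on every array.

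Other catenins and actin linkers had 13 of 16 above 0, a median of 0.18, and 1 gene higher and 0 genes lower in mutants with an unadjusted p under 0.05. That gene was Ctnnbip1, which encodes an inhibitor that keeps beta-catenin from TCF factors. It read 6.36, 6.01, 6.25 and 6.73 in mutants 1 to 4, against 5.53, 5.75, 5.88 and 6.31 in WT 1 to 4, with mutants 1 and 4 above every WT embryo, mutants 2 and 3 below WT 4, and WT 1 lowest. It differed by 0.47 ± 0.20 (SE; interval 0.025 to 0.91; limma adjusted p 0.973), with a slope of -0.14 ± 0.058 per somite. Ctnna2, the alpha-catenin of neurons, differed by -0.27 ± 0.15 inside the receptor range, and Arvcf, a relative of p120-catenin, by 0.24 ± 0.14.

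Nectins, tight junction and desmosome genes had 16 of 25 above 0, a median of 0.10, and 3 genes higher and 0 genes lower in mutants with an unadjusted p under 0.05. Nectin2, an immunoglobulin-like adhesion receptor of adherens junctions, was at 7.91, 8.14, 7.93 and 7.53 in mutants 1 to 4, against 7.67, 7.41, 7.41 and 7.45 in WT 1 to 4. Mutants 1 to 3 were above every WT embryo and mutant 4 was below WT 1, and the difference was 0.39 ± 0.15 (SE; interval 0.054 to 0.73; limma adjusted p 0.973). Cldn7, a claudin and a partner of Epcam, was at 9.52, 8.95, 9.84 and 9.71 in mutants 1 to 4, against 8.99, 8.98, 9.07 and 9.16 in WT 1 to 4. Mutants 1, 3 and 4 were above all WT embryos and mutant 2 below them, a difference of 0.46 ± 0.19 (SE; interval 0.041 to 0.87; limma adjusted p 0.973). Cgn, the tight junction protein cingulin, differed by 0.39 ± 0.16. In this list all mutant values were below all WT values for 1 gene, the adenovirus receptor homologue Cxadr (-0.27 ± 0.13), where 1.44% of all genes had this order. Ocln, which encodes occludin, had the smallest p for stage, a slope of -0.13 ± 0.053 (limma adjusted p 0.497), inside the receptor range.

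Partners of Epcam and Cd9, among them tetraspanins and the proteases that cut Epcam, had 9 of 21 above 0, a median of -0.020, and 0 at an unadjusted p under 0.05. Its sign was not stable, with 0.041 after median centring and 0.075 without mutant 4. The tetraspanins Tspan31 and Cd151 differed by -0.30 ± 0.19 and -0.35 ± 0.24 (SE), and the protease inhibitor Spint2 by 0.25 ± 0.23. Single embryos moved these values: Tspan31 was -0.15 without mutant 4, Cd151 -0.12 without WT 1, and Spint2 0.072 without mutant 3 and 0.062 without WT 3. Tspan9 had a slope of -0.14 ± 0.053 per somite (limma adjusted p 0.485).

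Cadherin repressors and epithelial regulators had 7 of 16 above 0, a median of -0.025, and 0 at an unadjusted p under 0.05. Here too the sign turned, to 0.036 after median centring and 0.032 without WT 3. The epithelial factor Ovol1 differed by 0.33 ± 0.20 (SE), the splicing regulator Esrp1 by -0.25 ± 0.20, at 9.28 ± 0.13 in mutants and 9.53 ± 0.41 in WT (SD), and Grhl2 by -0.16 ± 0.15 inside the receptor range. Klf5 had a slope of 0.11 ± 0.047 per somite (limma adjusted p 0.510). The repressors that bind the E-box shown above, named here for that reason, were Snai1 at 6.46 ± 0.27 in mutants and 6.53 ± 0.24 in WT, Snai2 at 4.83 ± 0.28 in mutants and 4.92 ± 0.18 in WT, Zeb1 at 5.32 ± 0.55 in mutants and 5.39 ± 0.61 in WT and Zeb2 at 4.17 ± 0.15 in mutants and 4.29 ± 0.18 in WT (SD, n = 4 each). Snai1 was above the receptor range in all 8 arrays, and Snai2 and Zeb2 in none.

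Genes of cadherin turnover and traffic had 12 of 17 above 0, a median of 0.15, and 0 at an unadjusted p under 0.05. The receptor phosphatase Ptprf differed by 0.39 ± 0.21 (SE) and the endosomal GTPase Rab5a by -0.29 ± 0.15. Exoc4, a subunit of the exocyst that delivers membrane proteins to the surface, was at 8.05, 8.03, 8.15 and 8.10 in mutants 1 to 4, against 7.99, 7.73, 7.89 and 7.82 in WT 1 to 4. All mutants were above all WT embryos, as in 1.08% of all genes, and the difference was 0.23 ± 0.12 (SE; limma adjusted p 0.973). Cbll1, the ubiquitin ligase Hakai that acts on E-cadherin, had a slope of 0.32 ± 0.085 per somite (limma adjusted p 0.400).

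The beta-catenin destruction complex had 9 of 10 above 0, a median of 0.11, and 1 gene higher and 0 genes lower in mutants with an unadjusted p under 0.05. Fbxw11, a ubiquitin ligase subunit that recognises phosphorylated beta-catenin, was at 8.40, 8.26, 8.45 and 7.58 in mutants 1 to 4, against 8.07, 7.78, 7.58 and 6.91 in WT 1 to 4. Mutants 1 to 3 were above every WT embryo, while mutant 4 fell among them, and WT 4 was lowest. It differed by 0.59 ± 0.26 (SE; limma adjusted p 0.973) and had a slope of 0.24 ± 0.060 per somite (limma adjusted p 0.388). Amer1 and the kinase Gsk3b differed by 0.25 ± 0.16 and 0.21 ± 0.16.

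**Figure D5:**
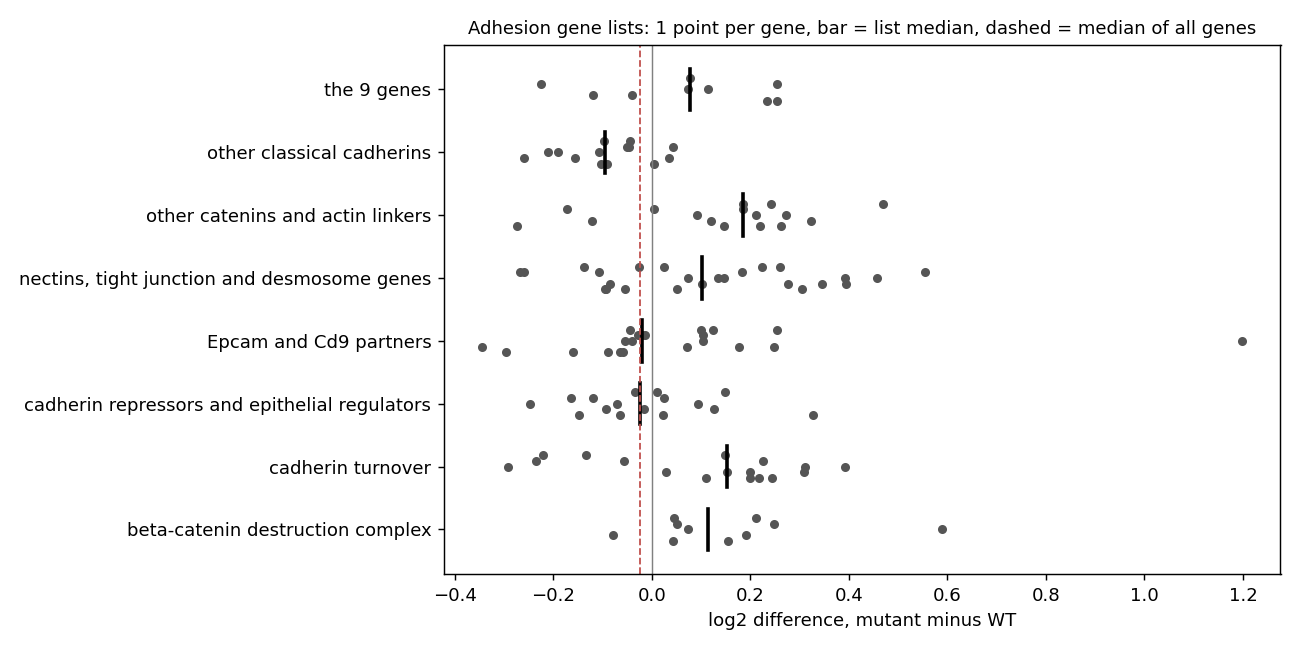
Difference mutant minus WT on the log2 scale for each gene (points) of the 9 adhesion genes and the 7 related lists, with the list median (black bars) and the median of all genes tested (dashed line, -0.024). List medians lie between -0.095 and 0.18, and the point farthest to the right is Cd63 at 1.20, a gene with an SD of 2.85 in WT.

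Markers of other cells that the sort could hold, among them those that make Cdh2 or Cdh11, were examined as well, and the part of such cells in the 9 genes' values was not tested. Of 11 trunk mesenchyme markers, 2 had a mean above the receptor range, with Pdgfra at 5.13 ± 0.22 in mutants and 5.31 ± 0.39 in WT (SD, n = 4 each). Of 10 neural tube markers, 6 did, with Sox1 at 6.62 ± 0.055 in mutants and 6.66 ± 0.26 in WT. The list mean for mesenchyme ran from 5.06 to 5.22 in mutants and from 4.87 to 5.36 in WT, and that for neural tube from 5.52 to 5.80 in mutants and from 5.59 to 5.84 in WT. Above the receptor range were 4 of 10 endothelial, 6 of 9 primitive erythroid, 3 of 10 macrophage and 5 of 8 surface ectoderm markers. These counts stand beside 11804 of the 19938 genes tested, which also had a mean above that range. The endothelial mean ran from 5.24 to 5.34 in mutants and from 5.16 to 5.38 in WT. Pecam1 stood apart in that list, with a mean of 8.68 over all arrays against 5.71 or less for its other markers. In the primitive erythroid list Tfrc stood apart, at 9.74 against 5.98 or less. Which cells made these transcripts was not tested. The erythroid mean lay between 5.44 and 5.61 in mutants and between 5.41 and 6.02 in WT, and that of macrophages between 4.56 and 4.86 in mutants and between 4.69 and 5.14 in WT. Each of these ranges overlapped between genotypes, as did that of surface ectoderm, 5.36 to 5.59 in mutants and 5.32 to 5.61 in WT. Only 1 of 9 erythroid and 1 of 10 macrophage markers had a difference above 0, with list medians of -0.24 and -0.12, where 44.6% of all genes were above 0. The receptor genes, whose range holds most of the macrophage markers, had a median of -0.083 with 72.7% below 0. After quantile normalization 55.4% of the receptor genes were below 0, and the part of scaling in these 2 lists was not tested. The myeloid adaptor Tyrobp differed by -0.44 ± 0.19 (SE; limma unadjusted p 0.0451, adjusted p 0.973). The embryonic globin Hbb-y and the macrophage receptor Csf1r were at 4.31 ± 0.19 in mutants and 4.81 ± 0.64 in WT, and 4.78 ± 0.22 in mutants and 4.82 ± 0.38 in WT.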

How the data were processed

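The series holds 8 microarrays, 1 per embryo, of PGCs from 4 Ror2 mutant and 4 WT embryos. Per the labels' protocols, RNA from sorted cells was isolated on micro columns, amplified (NuGEN Ovation FFPE WTA) and labelled with biotin. The deposited table holds, for each probe, 1 value an array, taken to be log2 from its range, and its unit, background correction and normalization were not given in the sources used here. Array medians ran from 5.37 to 5.58, and the values were used as deposited. Precision is limited by having 8 arrays.

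Of 35557 probes, the platform's annotation gave 21789 a single gene symbol, 1621 several and 12147 none. The probe of highest mean stood for a gene, giving 19938 genes. Tests used limma 3.58.1 in R 4.3.3 over all genes (lmFit, eBayes, Benjamini-Hochberg, threshold 0.05). Differences are mutant minus WT. Slopes per somite had genotype in the model, with midpoints for labelled ranges. The prior degrees of freedom were 4.48 for mutant against WT and 4.38 for the slope. Exact permutation tests used the 70 splits of 4 against 4, or all pairings of 8 arrays, and are two-sided. The code was tested on simulated data with 200 changed genes.

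The genes, lists and tests were chosen with earlier results of these data known. The rule named, for each list, the 3 genes of smallest p for mutant against WT and the 1 of smallest p for the slope, besides the 9 genes, 7 cell type markers and the 3 genes most like Cdh1, Epcam and Cdh2. Cxadr, Cd63, Cldn6, Tyrobp, Krt18, Krt19, Trim2, Cdx2, Fcer1g, Adgre1, Pecam1, Tfrc and the Snail and Zeb genes fall outside it. They were named after their values were seen. A few list members are not reported here, and counts are over the members measured. Alternatives were quantile normalization, median centring, genes above the median level, the mean of probes, the somite term changed, a replicate block, array weights, each array left out, and WT 3 with mutant 4 left out.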

Additional observations from a re-analysis of the deposited data

Results flagged for a closer look

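In 7 of 118 groups of 4 embryos examined, 1 embryo lay farther from the other 3 than Dixon's 95% critical value allows, where chance gives 5.9. None of the 9 adhesion genes was among them. Values are log2 levels, given against the range of the other 3 embryos of the same group. In mutant 4, Klf5 was at 8.33, against 8.73 to 8.81 in the other mutants, and the mean of hindgut endoderm markers was 5.78, against 5.45 to 5.48. In mutant 3, Gsk3b was at 7.19, against 7.52 to 7.59 in the other mutants. In WT 3, Cdh12 was at 4.05, against 3.59 to 3.67 in the other WT embryos, and Spint2 at 7.72, against 8.40 to 8.50. In WT 1, Nectin2 was at 7.67, against 7.41 to 7.45 in the other WT embryos, and Cd151 at 6.90, against 5.90 to 6.05.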

How the results depend on the processing

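Of 923 values recomputed under alternatives for 60 results, 891 were scored as kept. For genes and correlations this meant the same direction and, where tested, the same side of the threshold. For list medians it meant a move of less than the spread between replicates, and for counts of genes a value within a fixed ratio of the main count. No adhesion gene passed the limma threshold under any alternative, with adjusted p-values of at least 0.426. For mutant against WT, Cdh1, Cdh2, Cdh11, Ctnna1 and Cd9 kept their sign under every alternative run, though not their size (Cd9 ran from 0.091 to 0.42 with 1 embryo left out). Cdh3 was -0.043 without WT 3 and mutant 4 together and Ctnnb1 0.021 after median centring. With 1 embryo left out, the difference ran from -0.087 to 0.23 for Cdh3, -0.016 to 0.21 for Epcam, -0.12 to 0.044 for Ctnnb1 and -0.045 to 0.20 for Ctnnd1. Slopes ran from -0.078 to 0.032 for Ctnna1, -0.021 to 0.12 for Ctnnd1 and -0.11 to 0.035 for Cd9, and the Ctnna1 slope was 0.0084 after median centring. Same-numbered mutant and WT embryos did not deviate together (correlations of -0.049, 0.044, -0.19 and 0.097 for numbers 1 to 4), and the numbers were taken to name embryos and not pairs. Such correlations cannot exclude a shared litter or batch. With the replicate number as a block, slopes turned for Cdh3 (-0.049), Cdh11 (0.0018), Ctnna1 (0.0087), Ctnnd1 (-0.00079), Cd9 (0.020), Ctnnbip1 (0.0057) and Tspan9 (0.012), and the block left 675 genes with an unadjusted p under 0.05 for the slope and changed no call. Over all genes, the count at an unadjusted p under 0.05 for mutant against WT was 538 among genes of above-median level and ran from 729 to 1715 with 1 embryo left out, 1715 being without WT 1. For the slope it was 1046 among genes of above-median level, where fewer genes are tested, and the number past the adjusted threshold was 5 without WT 3 and mutant 4 together and from 0 to 2 with 1 embryo left out, none of them among the 9 genes or the 7 lists. The median of other catenins and actin linkers was 0.079 without WT 3 and mutant 4, and that of cadherin turnover ran from 0.079 to 0.23. The cause of these changes was not tested. Cdh2 and Cdh11 are limited by signal near the receptor range.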

Other observations

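Cd63, a tetraspanin of late endosomes, had the widest spread among the genes of the adhesion lists, with log2 levels of 8.49, 4.54, 7.58 and 8.02 in mutants 1 to 4, against 1.95, 5.87, 7.98 and 8.02 in WT 1 to 4. WT 1 and mutant 2 were low and the others were higher, in both groups. The difference was 1.20 ± 1.28 (SE; interval -1.63 to 4.03; limma adjusted p 0.975) and the slope -0.81 ± 0.40 per somite (limma adjusted p 0.532). Cldn6, a claudin of early embryonic epithelia, was at 6.42, 5.74, 6.91 and 7.12 in mutants 1 to 4, against 5.85, 5.91, 6.65 and 6.40 in WT 1 to 4, with mutant 2, WT 1 and WT 2 lowest. Both were chosen after their values were seen, and their values are given with no explanation.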
